A study of Mus musculus with 5 samples.

Results

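Hepatocyte identity rests on a small group of transcription factors, and 9 of them were followed in single-nucleus RNA of mouse liver: Hnf4a, Cebpa, Cebpb, Foxa1, Foxa2, Foxa3, Onecut1, Prox1 and Nr5a2. They were chosen by gene symbol from the 32285 genes listed in each library, and all 9 were found and passed the filter on low counts. Wild-type male C57BL6/J mice were given regular chow (3 libraries) or a diet used to model metabolic dysfunction-associated steatohepatitis, a fatty liver disease with inflammation (MASH; 2 libraries). In the MASH diet fat gave 40% of the calories and fructose 20%, with cholesterol added at 2%. Feeding began at 10 to 12 weeks of age and lasted 5 months. By the labels the groups differed in diet alone. Whether a library came from 1 mouse or from pooled livers is not given in the sources used here, so p-values measure the spread between libraries, which may be partly technical.

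HNF4A is a nuclear receptor that holds together much of the hepatocyte program, and its loss from hepatocytes lowers genes of lipid, bile acid and clotting factor metabolism. FOXA1, FOXA2 and FOXA3 are pioneer factors that open liver enhancers, C/EBPα and C/EBPβ are leucine zipper factors of metabolism and of the acute-phase response, and HNF6, the product of Onecut1, acts in hepatocytes and in bile duct formation. PROX1 is a homeobox factor of liver development that also acts as a corepressor of HNF4A and of LRH-1, and LRH-1, the product of Nr5a2, is a nuclear receptor of bile acid and cholesterol metabolism. These factors bind each other's promoters and enhancers.

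Levels were taken over nuclei with at least 2000 UMIs (unique molecular identifiers, 1 per captured RNA molecule) and 0 UMIs of Ptprc, Ptprb, Pkhd1 and Col3a1, which mark immune, endothelial, bile duct and fibroblastic or stellate nuclei. Hnf4a took no part in this gate. It kept 28043 of 57080 barcodes: of these nuclei 5298 came from chow replicate 1, 8406 from chow replicate 2, 7941 from chow replicate 3, 3612 from MASH replicate 1 and 2786 from MASH replicate 2. Kept nuclei were 61.4% to 71.9% of the barcodes in chow and 27.9% and 24.1% in MASH, and held 13500934 to 39976026 UMIs per library.

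The label of hepatocyte nuclei was checked with marker genes. The 8 hepatocyte markers (Alb and Apob among them) summed to between 14282 and 22868 CPM (UMIs of a gene scaled to a common library total) in the chow libraries and to 7158 and 9343 CPM in MASH, and all 8 had a lower mean in MASH. Markers of other cells were low but differed by diet: 6 macrophage markers summed to 14.1 to 15.2 CPM in chow and 31.3 and 68.8 CPM in MASH, 6 endothelial markers to 15.7 to 20.8 and 41.8 and 55.3 CPM, and 6 stellate markers to 29.1 to 34.5 and 84.7 and 90.7 CPM. The 5 T and NK cell markers differed most, with 1.09 to 4.70 CPM in chow and 110 and 128 CPM in MASH. Themis alone gave 109 and 126 CPM of this in MASH, and the other T and NK cell markers each stayed under 1 CPM in every library. The 4 B cell markers summed to under 4 CPM in every library. The part of these markers in the diet results was not tested. The 4 globin genes reached 3462 CPM in MASH replicate 1 against 153 to 765 CPM elsewhere. Chow replicate 3 stood apart from the other chow libraries, with the acute-phase gene Saa1 at 6770 CPM (721 and 123 in chow replicates 1 and 2) and the clock gene Dbp at 9.56 CPM (115 and 67.1). These genes were picked after their values were seen, and diet results are therefore also given without that library. Each of the 10 pairs of libraries shared 23 to 48 barcodes.

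The promoters of the members whose levels moved most are shown first, since the text returns to them. They are the 250 bases before the RefSeq start site (GRCm38.p6), read 5′ to 3′ on the gene's strand, with matches to 6 short motifs in capitals. Hnf4a (chr2, 163506808 to 163572910, plus strand, 13 merged exons) has 2 windows. The upstream one, known as P2, lies at chr2:163506607-163506856, and the downstream one, P1, the main promoter of adult hepatocytes, lies at chr2:163546905-163547154. Onecut1 (chr9, 74861921 to 74891781, plus strand) has 1 window at chr9:74861671-74861920. Foxa3 (chr7, 19013284 to 19023538, minus strand) has 1 at chr7:19023540-19023789.
Hnf4a upstream window: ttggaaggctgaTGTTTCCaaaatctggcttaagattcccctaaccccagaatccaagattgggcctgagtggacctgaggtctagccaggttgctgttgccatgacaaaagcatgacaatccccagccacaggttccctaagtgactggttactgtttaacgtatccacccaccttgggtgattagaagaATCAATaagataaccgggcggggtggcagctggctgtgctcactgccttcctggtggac
Hnf4a downstream window: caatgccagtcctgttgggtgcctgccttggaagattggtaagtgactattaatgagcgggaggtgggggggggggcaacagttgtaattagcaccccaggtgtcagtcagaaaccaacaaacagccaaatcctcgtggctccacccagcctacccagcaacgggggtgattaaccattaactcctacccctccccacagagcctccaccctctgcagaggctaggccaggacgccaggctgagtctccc
Onecut1 window: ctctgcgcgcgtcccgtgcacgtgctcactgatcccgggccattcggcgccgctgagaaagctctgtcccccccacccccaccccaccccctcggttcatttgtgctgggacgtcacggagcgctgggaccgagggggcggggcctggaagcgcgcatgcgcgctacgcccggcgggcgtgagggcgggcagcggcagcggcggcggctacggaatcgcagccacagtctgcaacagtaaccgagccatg
Foxa3 window: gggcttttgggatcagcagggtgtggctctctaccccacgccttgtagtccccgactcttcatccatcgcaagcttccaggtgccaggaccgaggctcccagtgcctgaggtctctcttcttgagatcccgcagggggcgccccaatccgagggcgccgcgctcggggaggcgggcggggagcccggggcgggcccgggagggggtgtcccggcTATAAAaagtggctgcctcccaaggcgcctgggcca

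In the upstream Hnf4a window the capitals mark a FOXA motif (TGTTTNC) and an HNF6 motif (ATCAAT), the letters that FOXA proteins and the Onecut1 product recognise. The downstream window held no match. The Foxa3 window held a TATA box (TATAAA) and the Onecut1 window, with a GC content of 73.0% over 300 bases, held none of the 6. Both strands were searched over 300 bases, which include 50 after the start site. Of 32851 mouse promoter windows of that length, 20.5% held the FOXA motif, 7.54% the HNF6 motif and 13.6% the TATA box. The remaining motifs searched were HNF4 (CAAAGTCCA, in 0.475% of windows), NR5A2 (CAAGGTCA, 1.56%) and C/EBP (TTGCNNAA, 10.8%). Across the 14 windows of the 9 members, the HNF4 and NR5A2 letters were found in none and the C/EBP letters in 1, upstream of Nr5a2. FOXA letters also lay before Foxa1 and in 1 of 2 Prox1 windows, and HNF6 letters in 1 of 3 Foxa2 windows. A match in a window of this kind describes letters, not binding.

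The first comparison asked how the factors differed between the diets. Onecut1 and Hnf4a were the 2 members that fell in MASH, and 0 rose. Among all 14957 genes tested, 12.7% were called in either direction, 8.71% higher and 4.01% lower (edgeR quasi-likelihood test, Benjamini-Hochberg adjusted p under 0.05). The log2 fold change was negative for 8 of 9 members, with a median of -0.80 against -0.03 over all genes. In bulk sums like these, fewer nuclei expressing a gene and less RNA per nucleus cannot be told apart. Shares of nuclei with a UMI are given further on as a description. Such a share also falls when the level per nucleus falls, so it does not separate these readings. All levels below are CPM scaled by TMM (trimmed mean of M-values) unless another scale is named.

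Onecut1 had the steepest difference. Its level was 528, 1129 and 128 CPM in chow replicates 1, 2 and 3 and 33.1 and 35.3 CPM in the MASH libraries. Every MASH value lay below every chow value, although the chow libraries themselves were far apart. The means were 595 ± 504 (SD, n = 3) and 34.2 ± 1.58 (SD, n = 2), and the fitted log2 fold change was -4.12 (SE 0.90, 95% interval -6.22 to -2.02, edgeR adjusted p 0.0296), or 17.4-fold lower. Without chow replicate 3 the log2 fold change was -4.63 (adjusted p 0.00347) and without chow replicate 2 it was -3.30 and no longer called (adjusted p 0.0560). The call was also lost without MASH replicate 1 (-4.08, adjusted p 0.191) or MASH replicate 2 (-4.17, adjusted p 0.175). A lincRNA, Gm20649, overlaps the exons of Onecut1 on the same strand.

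Hnf4a fell by a smaller factor, with a narrower spread between libraries. It stood at 252, 426 and 521 CPM in chow and at 144 and 132 CPM in MASH. The means were 400 ± 137 (SD, n = 3) and 138 ± 8.43 (SD, n = 2), a log2 fold change of -1.54 (SE 0.38, 95% interval -2.41 to -0.66, edgeR adjusted p 0.0406). The 3-prime reads do not tell transcripts of the upstream promoter from those of the downstream one. Without chow replicate 3, where Hnf4a was highest, it was -1.34 (adjusted p 0.0329). Without chow replicate 2 the call was lost (-1.52, adjusted p 0.0840), as it was without MASH replicate 1 (-1.60, adjusted p 0.255) or MASH replicate 2 (-1.47, adjusted p 0.287), and blocking on the replicate number gave -1.25 (adjusted p 0.0576).

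**Figure D1:**
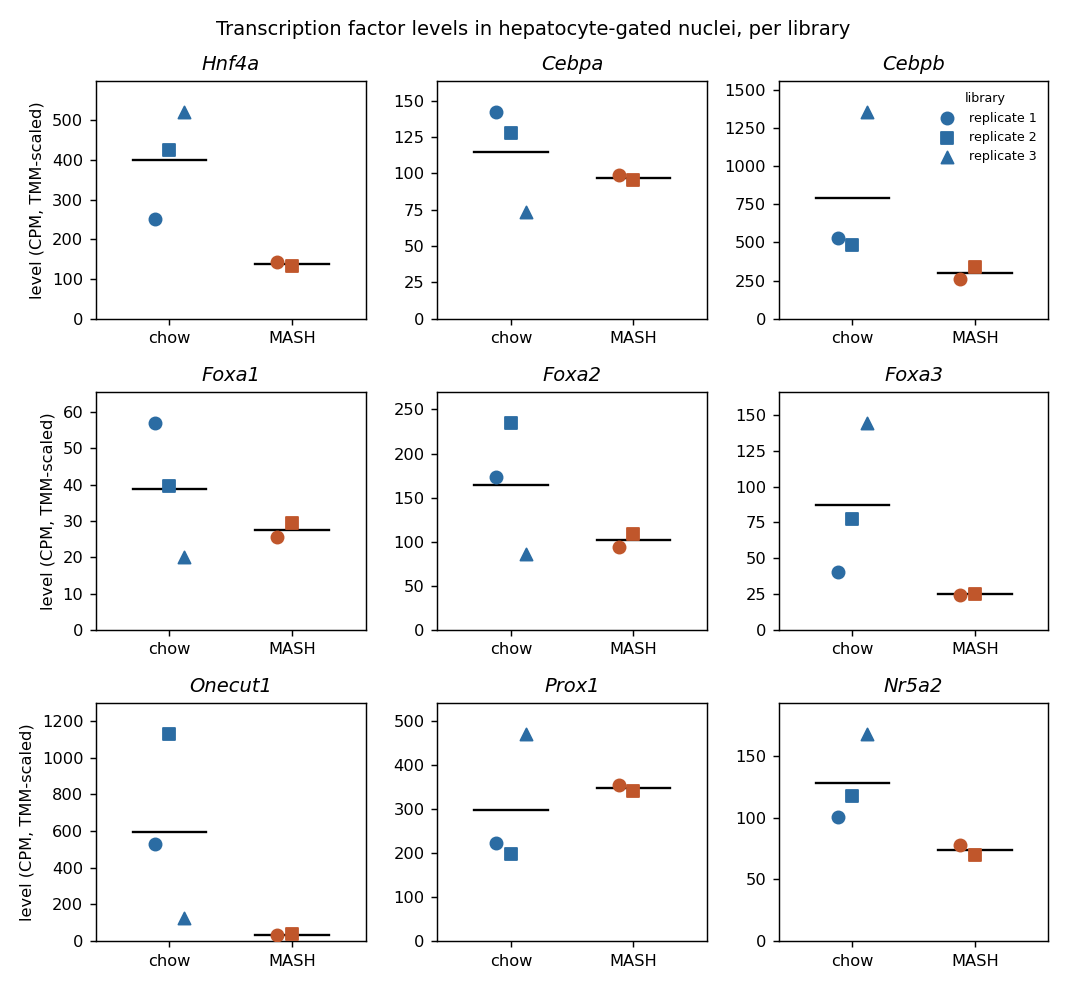
Each panel plots 1 transcription factor in hepatocyte-gated nuclei, with the TMM-scaled level in CPM on the vertical axis from 0, diet on the horizontal axis, 1 symbol per library (circle, square and triangle for replicates 1, 2 and 3) and a bar at the group mean. The MASH libraries lay below every chow library for Hnf4a, Cebpb, Foxa3, Onecut1 and Nr5a2, and chow replicate 3 was at one end of the chow values for all 9 factors.

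None of the 3 FOXA factors passed for diet over all 5 libraries. Foxa3, the member most tied to the adult liver, was at 40.1, 77.2 and 144 CPM in chow and 24.5 and 25.1 CPM in MASH. The groups did not overlap, and the log2 fold change of -1.81 (SE 0.51) came with an edgeR adjusted p of 0.0587, just short of the threshold. It passed without chow replicate 3 (-1.28, adjusted p 0.0426), with the replicate block (-1.17, adjusted p 0.0485) and with DESeq2 (adjusted p 0.00375). Foxa2, a factor of fasting metabolism, was at 173, 234 and 85.5 CPM in chow and 94.2 and 109 CPM in MASH. Chow replicate 3 was below both MASH libraries, and the log2 fold change was -0.69 (adjusted p 0.288), or -1.04 without that library (adjusted p 0.0362). Foxa1 was at 57.0, 39.6 and 19.9 CPM in chow and 25.5 and 29.3 CPM in MASH, again with chow replicate 3 lowest, and its log2 fold change was -0.50 (adjusted p 0.438; -0.85 and 0.0616 without chow replicate 3).

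Of the C/EBP factors, Cebpb was at 531, 485 and 1356 CPM in chow and 258 and 337 CPM in MASH. The groups were separate, but the log2 fold change of -1.41 (SE 0.53) did not pass (adjusted p 0.115). It was -0.81 without chow replicate 3, where Cebpb was highest (adjusted p 0.0860). Cebpa was at 142, 128 and 73.2 CPM in chow and 98.7 and 95.3 CPM in MASH. Those values overlapped, and the difference of -0.24 had a 95% interval from -0.99 to 0.51 (adjusted p 0.639). Without chow replicate 3, where Cebpa was lowest, the difference was -0.52 (adjusted p 0.129). Both genes have a single exon, and each overlaps an exon of a gene on the opposite strand, Gm45091 for Cebpa and Tmem189 for Cebpb.

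The remaining members, Nr5a2 and Prox1, did not pass either. Nr5a2 was at 100 CPM, 118 CPM and 168 CPM in chow and 77.6 and 69.9 CPM in MASH. Its groups did not overlap, and the log2 fold change was -0.80 (SE 0.29, 95% interval -1.48 to -0.12, adjusted p 0.107). Without chow replicate 3 it was -0.60 (adjusted p 0.0950). Prox1 was at 224, 197 and 471 CPM in chow and 354 and 341 CPM in MASH, so that both MASH libraries lay between the chow values. Its log2 fold change of 0.23 (95% interval -0.75 to 1.20, adjusted p 0.740) was the single positive one, and it went from -0.03 without chow replicate 2 to 0.68 without chow replicate 3. Separate groups were common: 53.5% of all genes tested had MASH entirely above or below chow, 29% above and 24.4% below, against 5 of 9 members below and 0 above.

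**Figure D2:**
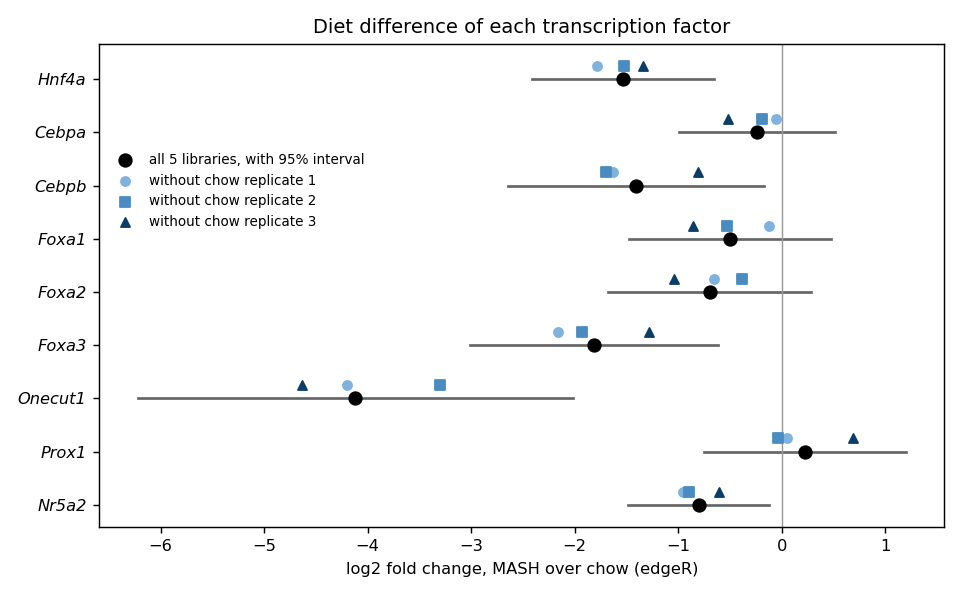
The horizontal axis is the edgeR log2 fold change of MASH over chow for each factor; black points with grey bars give the value and 95% interval over all 5 libraries, and coloured symbols the value when 1 chow library is left out. Onecut1 and Hnf4a lie furthest from 0 relative to their intervals, and leaving out chow replicate 3 moves Prox1 from 0.23 to 0.68.

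The chow libraries differed widely for some members on unscaled CPM. Onecut1 varied 10.8-fold between the highest and lowest chow library, a spread reached by 0.444% of the 6756 genes at 20 CPM or more, for which the median was 1.64-fold. Foxa1 varied 4.06-fold, Foxa2 3.35-fold and Cebpa 2.76-fold, all lowest in chow replicate 3. Nr5a2 varied by 1.18-fold and Hnf4a by 1.46-fold. On the TMM-scaled levels that were tested, these spreads were 1.67-fold for Nr5a2, 2.07-fold for Hnf4a and 8.83-fold for Onecut1. They were 2.86-fold for Foxa1, 2.74-fold for Foxa2 and 1.94-fold for Cebpa. Hnf4a was highest in chow replicate 2 before that scaling and in chow replicate 3 after it. The low Foxa1, Foxa2, Cebpa and Onecut1 values of chow replicate 3 stood beside its high Saa1 and low Dbp values, and any link between them was not tested.

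The share of nuclei with a UMI was compared as well. Each nucleus was thinned to 2000 UMIs, which left out no nucleus. Hnf4a was then found in 39.4%, 52.5% and 53.0% of chow nuclei and in 25.5% and 26.5% of MASH nuclei, means of 48.3% ± 7.71 (SD, n = 3) and 26.0% ± 0.720 (SD, n = 2; exact two-sided permutation p 0.1, the smallest the design allows). Onecut1 was found in 55.6%, 80.5% and 15.8% of chow nuclei and in 6.45% and 8.26% of MASH nuclei (exact permutation p 0.2). Nr5a2 was found in 19.1% to 21.1% of chow nuclei and in 14.3% and 14.2% of MASH nuclei (exact permutation p 0.1). Prox1 went the other way, in 33.3%, 28.1% and 45.9% of chow nuclei and 46.9% and 50.6% of MASH nuclei (exact permutation p 0.2). Cebpb (65.7% ± 14.8 and 43.4% ± 8.24) and Foxa3 (13.5% ± 5.29 and 5.33% ± 0.531) had both MASH libraries below all chow libraries, and Cebpa, Foxa1 and Foxa2 overlapped. None of the 9 shares passed: the exact permutation p adjusted over these 9 tests was 0.30 or higher, and no p of 3 libraries against 2 can go under 0.1.

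Without thinning the mean shares were 71.6% and 45.5% for Hnf4a and 65.6% and 14.0% for Onecut1. As background, nuclei thinned to 1000 UMIs were compared with Col3a1 nuclei of the same library. Hnf4a was found in 3.23%, 21.7% and 11.8% of 62, 23 and 68 Col3a1 nuclei of chow replicates 1, 2 and 3 (exact Clopper-Pearson 95% intervals 0.393 to 11.2, 7.46 to 43.7 and 5.22 to 21.9) against 22.8%, 31.9% and 32.9% of gated nuclei. In MASH it was found in 3.78% of 370 and 3.34% of 509 Col3a1 nuclei (2.08 to 6.27 and 1.96 to 5.29) against 13.2% and 13.8% of gated nuclei. The gated share was higher in each library, but in chow replicate 2 it lay within the interval of the Col3a1 share. For Onecut1 the Col3a1 shares were 11.3%, 17.4% and 2.94% in chow (4.66 to 21.9, 4.95 to 38.8 and 0.358 to 10.2) against 38.9%, 59.9% and 9.08%, and 1.08% and 1.77% in MASH (0.295 to 2.74 and 0.812 to 3.33) against 3.24% and 3.77%. The gated share was again higher in each library, within the interval in chow replicate 3 alone. Median depths before thinning were 1413 to 1685.5 UMIs in the Col3a1 nuclei and 3488 to 4382.5 UMIs in the gated nuclei. These intervals cover counting error only.

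Over all 9 factors, a nucleus thinned to 2000 UMIs carried a mean of 2.81, 3.09 and 2.62 of them in the chow libraries and 1.74 and 2.00 in MASH. Nuclei with none of the 9 were 2.21%, 1.39% and 1.93% of gated nuclei in chow and 16.1% and 9.33% in MASH. The MASH libraries were thus separate from the chow libraries on both measures. The share of gated nuclei with any marker of another cell type, Themis and globin genes not counted, was also higher in MASH (53.1% and 56.5%) than in chow (21.6% to 36.7%), and its part in these shares was not tested. In sums per library under a stricter gate that removed those nuclei, the log2 fold change was -1.57 for Hnf4a and -4.14 for Onecut1 (edgeR adjusted p 0.0439 and 0.0310). The shares were not taken under that gate, which does not remove RNA of other cells that no listed marker shows.

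The second comparison asked how the factors lay along the liver lobule, which runs from the portal triad to the central vein. Gated nuclei were scored by the pericentral genes Cyp2e1 and Glul minus the periportal genes Cyp2f2 and Hal and split into 3 equal parts within each library. Of the 9 members, 5 were lower and 1 was higher in the pericentral part than in the periportal part (edgeR with the library as a block, averaged over the diets), where 19.8% of 13701 genes were called, 9.44% lower and 10.4% higher. Onecut1 and Foxa3 had the steepest gradients. The parts are ranges of a continuous score: 10.1% to 23.4% of scored nuclei lay within 0.25 of a given cut, and the periportal part of MASH replicate 2 still had a median score above 0, at 0.141.

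Onecut1 fell from 624 to 451, from 1198 to 1014 and from 174 to 82.0 CPM in chow replicates 1, 2 and 3, and from 46.0 to 25.2 and from 48.2 to 22.4 CPM in MASH. All 5 libraries went the same way, with a log2 difference of -0.79 (SE 0.12, 95% interval -1.06 to -0.51, edgeR adjusted p 0.00165). Foxa3 fell from 61.9 to 22.4, from 89.3 to 61.9 and from 159 to 123 CPM in chow and from 32.2 to 19.01 and from 30.1 to 23.0 CPM in MASH. Its difference was -0.65 (SE 0.16, adjusted p 0.0162), steepest in chow replicate 1.

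Hnf4a, Nr5a2 and Prox1 had shallower gradients in the same direction. Hnf4a was at 291, 472 and 579 CPM in the periportal part of the chow libraries and at 220, 372 and 453 CPM in the pericentral part, and in MASH it went from 160 to 135 and from 149 to 125 CPM. The difference was -0.31 (SE 0.05, adjusted p 0.00303), and each library was lower in its pericentral part. Nr5a2 differed by -0.29 (SE 0.06, adjusted p 0.00646) and Prox1 by -0.25 (SE 0.06, adjusted p 0.0126), also lower in 5 of 5 libraries. With library totals alone as the scale Prox1 was not called (-0.18, adjusted p 0.0580).

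Cebpb was the one member called higher towards the central vein. It went from 495 to 569, from 416 to 528 and from 1250 to 1426 CPM in chow and from 246 to 272 and from 282 to 396 CPM in MASH. The difference was 0.28 (SE 0.07, adjusted p 0.0160) and positive in 5 of 5 libraries. Cebpa (-0.05, adjusted p 0.753), Foxa1 (0.18, adjusted p 0.122) and Foxa2 (-0.10, adjusted p 0.270) did not pass. For Cebpa the libraries went in both directions, while Foxa1 was higher in the pericentral part of all 5.

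**Figure D3:**
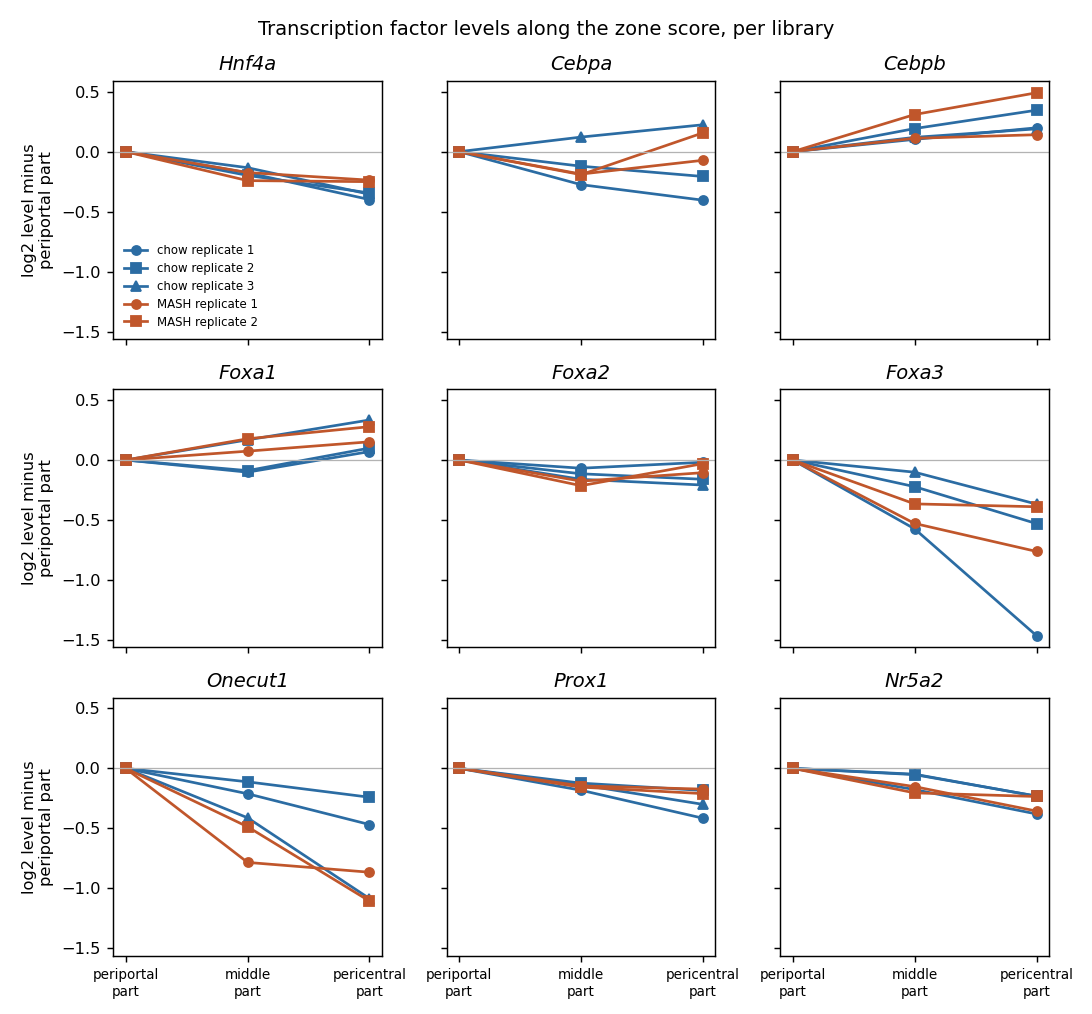
For each factor the vertical axis gives the log2 TMM-scaled level of a zone part minus that of the periportal part of the same library, so that every line starts at 0; blue lines are chow and orange lines MASH libraries. Onecut1, Foxa3, Hnf4a, Prox1 and Nr5a2 end below 0 and Cebpb above 0 in all 5 libraries.

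Depth moved with the score. Median UMIs per nucleus were 3403 to 4215 in the periportal parts and 3686.5 to 4830.5 in the pericentral parts, higher in the pericentral part of each library, and the part of depth in the gradients was not tested. The zone calls also rested on single libraries. Cebpb lost its call without chow replicate 2 (0.26, adjusted p 0.0657) and without MASH replicate 2 (0.20, adjusted p 0.225). Without MASH replicate 1 the called members were Onecut1 (adjusted p 0.0288) and Cebpb (adjusted p 0.0403), and without MASH replicate 2 Onecut1 alone (adjusted p 0.0435). Their log2 differences stayed within -0.87 and -0.67 for Onecut1 and 0.20 and 0.37 for Cebpb whichever library was left out.

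Whether the gradients differed between the diets was tested as an interaction. No member was called, where 1.12% of 13701 genes were, 0.606% higher and 0.518% lower (1912 genes had an unadjusted p under 0.05, and DESeq2 also called 0 members). The member furthest from 0 was Onecut1, with a zone difference in MASH minus that in chow of -0.37 on the log2 scale (95% interval -0.92 to 0.17, adjusted p 0.539). The other 8 lay between 0.01 and 0.21. When zones were set by Glul and Hal alone the Onecut1 interaction was -0.93 and passed (adjusted p 0.0153), and over the alternatives it ranged from -0.93 to -0.18. A miss of the threshold does not show equal gradients.

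The third comparison placed the members across cell classes. Nuclei with at least 500 UMIs, at least 2 UMIs of 1 class gene and none of the other 3 formed Ptprc (immune), Ptprb (endothelial), Pkhd1 (bile duct) and Col3a1 (fibroblastic or stellate) classes, and sums of fewer than 20 nuclei were left out, which removed the Pkhd1 nuclei of chow replicate 2. All 9 members were higher in the hepatocyte-gated nuclei than in the Ptprc, Ptprb and Col3a1 classes (edgeR with the library as a block). Of all 11337 genes 47.7%, 42.8% and 44.1% were called in these contrasts, 26.5%, 22% and 22.8% higher and 21.2%, 20.7% and 21.3% lower. With DESeq2's median-of-ratios scaling in edgeR, 8, 8 and 9 members were called, Cebpb (adjusted p 0.0643 against Ptprc) and Nr5a2 (0.229 against Ptprb) being the exceptions. That scaling also changed the balance over all genes, from 3001 higher and 2408 lower to 2055 and 3001 against Ptprc, from 2496 and 2352 to 1572 and 2759 against Ptprb, from 2580 and 2414 to 1806 and 2927 against Col3a1, and from 440 and 604 to 110 and 655 against Pkhd1.

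With all class nuclei of at least 500 UMIs, the differences were modest for genes that define hepatocytes. Hnf4a was higher by 0.86, 0.80 and 1.42 on the log2 scale than in the Ptprc, Ptprb and Col3a1 classes (edgeR adjusted p 1.00e-05, 3.29e-05 and 2.06e-08), and Prox1 by 1.02, 0.86 and 1.48. They were larger when the class nuclei were limited to 500 to 2000 UMIs. Hnf4a was then higher by 2.35, 2.36 and 2.96 and Prox1 by 3.22, 2.93 and 3.44. On the scale of the fit with all class nuclei, Hnf4a was at 295, 451 and 589 CPM in gated nuclei of chow. It was at 183, 312 and 260 CPM in Ptprc nuclei and at 75.6, 282 and 210 CPM in Col3a1 nuclei. Alb, the most abundant hepatocyte product, was at 2522, 6566 and 5628 CPM in gated chow nuclei and at 3263, 6424 and 6416 CPM in Ptprc nuclei of the same libraries. Apob was lower in the Ptprc nuclei, at 1414, 2029 and 2048 CPM against 2224, 2729 and 3362 CPM in gated nuclei. Hepatocyte RNA was thus present in immune-gated nuclei, for Alb at levels like those of gated nuclei, and how much of the members' levels there came with it was not tested. Nr5a2 against the Ptprb class had the weakest call, at 0.35 (adjusted p 0.0471), and lost it when any 1 library was left out.

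The Pkhd1 class was the exception. Onecut1 was lower in hepatocyte-gated nuclei than in Pkhd1 nuclei, by -1.58 on the log2 scale (SE 0.25, adjusted p 4.75e-05; 9.21% of genes were called, 5.33% lower). In MASH it was at 134 and 284 CPM in Pkhd1 nuclei against 36.0 and 39.8 CPM in gated nuclei. In chow replicates 1 and 3 it was at 905 and 124 CPM in Pkhd1 nuclei against 619 and 145 CPM. The difference was therefore seen in both MASH libraries and in 1 of 2 chow libraries, and it remained called when any library was left out, between -1.92 and -1.08, with -1.08 without MASH replicate 2. Cebpb was the only member called higher in gated nuclei than in Pkhd1 nuclei (0.82, SE 0.14, adjusted p 0.000139; 3.88% of genes were called higher). The other 7 did not pass, with log2 differences from -0.07 for Nr5a2 to 0.52 for Cebpa. The Pkhd1 sums rested on 33 and 20 nuclei in chow and 205 and 624 in MASH. With Pkhd1 nuclei of 500 to 2000 UMIs, Hnf4a and Cebpa were called higher in gated nuclei (2.58 and 2.00, edgeR adjusted p 0.000109 and 0.000657). Cebpb stayed higher, Onecut1 stayed lower and the others were not called. In chow replicates 1 and 3 Apob was at 1952 and 2945 CPM in all Pkhd1 nuclei, against 2224 and 3362 CPM in gated nuclei. The part of hepatocyte RNA in the Pkhd1 levels was not tested.

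**Figure D4:**
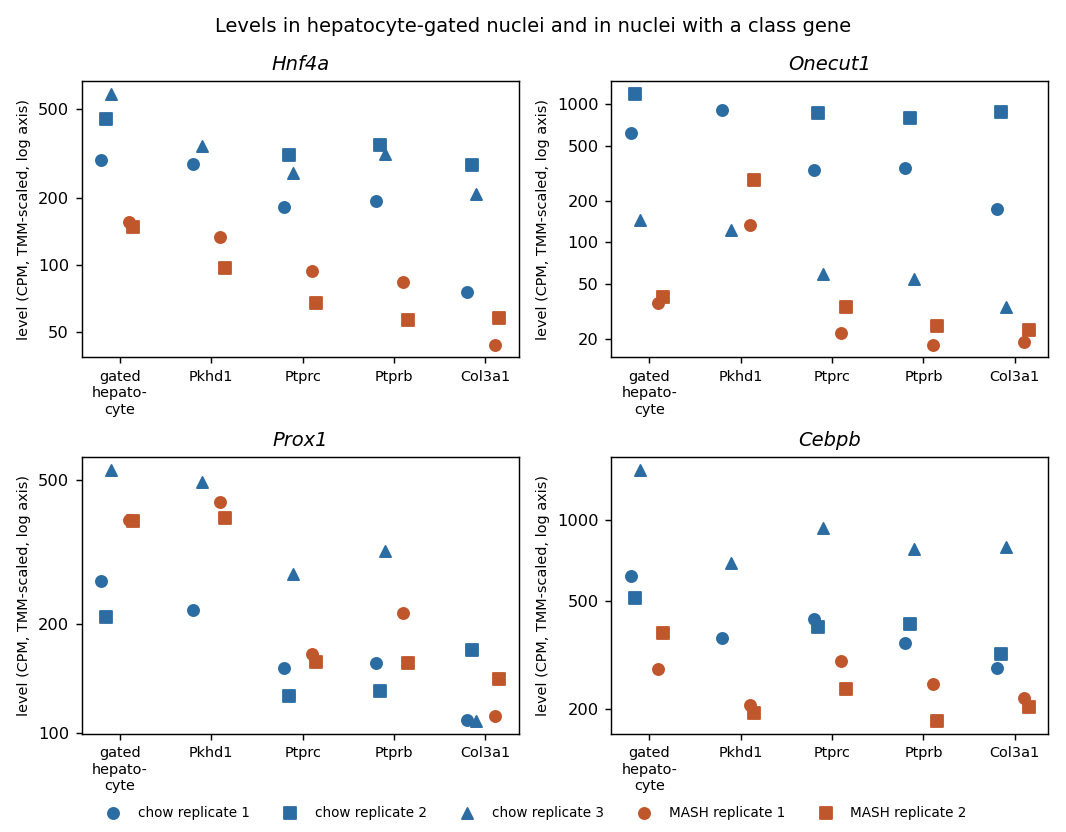
Levels of 4 factors (TMM-scaled CPM, log axis) in hepatocyte-gated nuclei and in nuclei of the 4 class genes, 1 symbol per library, blue for chow and orange for MASH; the Pkhd1 sum of chow replicate 2 is left out. In MASH Onecut1 is higher in the Pkhd1 nuclei (134 and 284 CPM) than in gated nuclei (36.0 and 39.8 CPM), while Hnf4a is highest in gated nuclei in all 5 libraries.

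Within MASH, gated nuclei with at least 2 of the disease-associated markers Nrg1, Anxa2, Gdf15 and Sox4 (494 and 280 nuclei) were set beside nuclei with none (1839 and 1574), as a description with no test. Hnf4a was at 176 CPM (95% counting interval 159 to 194) against 139 (131 to 147) in MASH replicate 1 and at 188 (166 to 213) against 150 (141 to 159) in MASH replicate 2, unscaled. Foxa3 was also higher in the marker nuclei, by 0.41 and 0.44 on the log2 scale, as were Onecut1 by 0.46 and 0.23, Cebpb by 0.52 and 0.11, Cebpa by 0.06 and 0.31 and Nr5a2 by 0.28 and 0.27. Prox1 differed by -0.14 and -0.16 and Foxa1 by -0.27 and -0.12, and Foxa2 went in both directions. The marker nuclei had slightly more UMIs, with medians of 4117 and 4192.5 against 3693 and 4065.

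Genes around the members were read from lists. Of 8 paralogues, 6 were tested and 0 were called for diet (median log2 fold change -0.39), and those with the lowest p were Cebpg (-0.56, adjusted p 0.169), Cebpd (-1.28, 0.248), Onecut2 (-0.54, 0.292) and Cebpe (0.75, 0.348). Onecut2, the closest relative of Onecut1, was at 1289, 1195 and 1399 CPM in chow and 901 and 876 CPM in MASH. Its MASH values were lower in both libraries but by far less than those of Onecut1. Of 25 other liver transcription regulators 1 fell, a share like the 4.01% over all genes, 0 rose and the median was -0.29. The one that fell was Xbp1, a factor of the secretory pathway, from 795 ± 286 (SD, n = 3) to 213 ± 6.52 CPM (SD, n = 2; -1.90, adjusted p 0.0266). Tbx3 (1.02, adjusted p 0.0543) and Klf15 (-0.75, 0.09) were among the next by p. Along the zones 4 of these 25 regulators were called higher and 8 lower in the pericentral part. Over all 13701 genes of that fit 10.4% were called higher and 9.44% lower. Among these regulators Tbx3 had the steepest difference, at 3.76.

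Of 22 textbook targets of the members, Tf was not listed and 21 were tested. For diet 1 was called lower and 0 higher, where 4.01% of all genes were called lower. The log2 fold change was negative for 18, with a median of -0.90 against -0.03 over all genes. The called gene was F9, which encodes clotting factor IX, at 93.2, 106 and 119 CPM in chow and 52.8 and 57.7 CPM in MASH (-0.94, SE 0.23, adjusted p 0.0430). Cps1, the first enzyme of the urea cycle, was at 1006, 1478 and 663 CPM in chow and 330 and 374 CPM in MASH (-1.58, adjusted p 0.0537). Pck1 (-1.39, adjusted p 0.0687), a rate-controlling enzyme of glucose production, was lower in both MASH libraries without passing. Along the zones 12 of these 21 targets were called lower and 4 higher in the pericentral part. Over all 13701 genes of that fit 9.44% were called lower and 10.4% higher.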

How the data were processed

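Nuclei of frozen livers were sorted and made into droplet-based 3-prime libraries. The deposited values are raw UMI counts for every gene in every nucleus, which the authors made with Cell Ranger 8.0.1 on a GRCm38 transcriptome, leaving out intronic reads, so that unspliced RNA of multi-exon genes is counted less than that of Cebpa and Cebpb. Annotation came from GENCODE M21, in which 99.6% of the gene identifiers were found, and the promoters from RefSeq.

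The matrices hold filtered barcodes without cell names. No doublet caller was run, and an alternative left out the top 10% of gated nuclei by UMIs in each library. Counts were summed per library, per library and zone part, and per library and class. The sums were tested with edgeR 4.0.16 (glmQLFit and glmQLFTest, TMM, filterByExpr, Benjamini-Hochberg, two-sided, called at an adjusted p under 0.05) in R 4.3.3, over all genes. Standard errors were taken as the absolute log2 fold change divided by the root of the F statistic. The zone score was the mean natural log of 1 plus counts per 10000 UMIs of Cyp2e1 and Glul minus that of Cyp2f2 and Hal, and nuclei with none of the 4 were left out. Shares of nuclei with a UMI were compared by exact permutation. The alternatives covered scaling, filters, gates, zone scores, DESeq2 1.42.0 and leaving out each library. The fits were tested on simulated counts. Members, gene lists and named genes (all 9 members, and up to 4 genes of a list by lowest p) were chosen with earlier results of these data known. Afp and Sox9, of the fetal and ductal list, were named outside that rule. A gene counted in 2 of the lists is not reported here by name.

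Whether the replicate numbers of the diets pair the libraries could not be tested. With 2 MASH libraries, their deviations from the diet mean mirror each other. Across genes, deviations of libraries with the same number correlated at -0.13 and -0.23. Those of chow replicates 1 and 2 with the other MASH library were therefore 0.13 and 0.23.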

Additional observations from a re-analysis of the deposited data

How the results depend on the processing

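For the diet, 0 to 4 members were called lower and none higher in 18 alternatives: 4 with DESeq2, 1 with library totals alone and 1 with at least 50 UMIs in 2 libraries, and from 0 (without chow replicate 2 or either MASH library) to 4 (without chow replicate 3) when 1 library was left out. All genes called, 1903, became 3260 with DESeq2 (1773 higher, 1487 lower), 3712 with Storey q-values, 1117 with at least 50 UMIs in 2 libraries and from 178 to 2479 when 1 library was left out. Library totals alone moved the median of all genes to 0.26 and the calls to 1543 higher and 319 lower, with Onecut1 (adjusted p 0.0265) still called. Of 162 member values 143 kept direction and call, and Prox1 alone changed sign, at -0.034 without chow replicate 2 (up to 0.68 without chow replicate 3). The adjusted p ran from 0.000559 to 0.287 for Hnf4a and from 1.14e-07 to 0.191 for Onecut1.

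With the replicate number as a block, a pairing that could not be tested here, 1794 genes and 2 members were called, Onecut1 and Foxa3. Hnf4a was then -1.25 (adjusted p 0.0576).

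For the zones, 6 members were called, and between 1 and 6 when 1 library was left out; all genes called, 2712, were 1105 to 2731. Cebpa turned positive with Cyp2e1 and Cyp2f2 only (0.012), with library totals alone (0.021) and without 1 library (-0.13 to 0.016). For the interaction, Glul and Hal only gave 1 member and 404 genes (154 with all choices as planned), the share of zone gene UMIs 288, no filter on low counts 289, and leaving out 1 library 0 to 383, the 0 being without MASH replicate 2, where 1056 genes had an unadjusted p under 0.05 in edgeR. Interactions of the other members did not pass and often changed sign: with Glul and Hal only Hnf4a was -0.033, Cebpa -0.10, Foxa1 -0.28, Foxa2 -0.080, Foxa3 -0.18, Prox1 -0.075 and Nr5a2 -0.073; with the share of zone gene UMIs Cebpa was -0.018, Cebpb -0.060 and Foxa1 -0.17; with 2 zone parts Foxa1 was -0.0022 and Nr5a2 -0.0053. Nr5a2 was also -0.019 with Cyp2e1 and Cyp2f2 only, -0.021 with a mitochondrial share of at most 5%, -0.065 with library totals alone and -0.027 with no filter on low counts. Leaving out 1 library gave -0.091 to 0.27 for Cebpb, -0.10 to 0.38 for Foxa3 and -0.063 to 0.071 for Nr5a2.

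Against Pkhd1 nuclei, where 1 member was called higher, 3 were with 500 to 2000 UMIs, 2 with at least 3 UMIs of the class gene, 2 with no filter on low counts and 1 to 2 when 1 library was left out. Prox1 was 0.24 with 500 to 2000 UMIs and 0.065 with no filter, and Nr5a2 0.068 with no filter and -0.16 to 0.036 when 1 library was left out. Shares of nuclei changed sign for Cebpa (-5.86 to 1.89 percentage points when 1 library was left out) and Foxa1 (-3.25 to 0.686). The cause of these changes was not tested. A fit without either MASH library leaves 1 of them, which is then assumed to vary like chow.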

Other observations

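Fetal and ductal genes were the listed group with a positive median log2 fold change. Of 12 genes 8 were tested, of which 5 rose, 0 fell and the median log2 fold change was 2.32 (edgeR). Among all genes tested 8.71% were called higher and 4.01% lower. Sox4, a developmental transcription factor, went from 1.13, 0.565 and 0.327 CPM in chow to 17.4 and 13.6 CPM in MASH (4.53, adjusted p 0.00481). Spp1, which encodes osteopontin, went from 2.51, 7.13 and 14.7 CPM to 141 and 168 CPM (4.25, adjusted p 0.0112). Epcam (3.38, adjusted p 0.0298) and Cd24a (2.91, adjusted p 0.0304), surface proteins of bile duct and progenitor cells, stayed below 4 CPM in every library. Epcam had 3, 5 and 11 UMIs in chow and 16 and 57 in MASH, and Cd24a 3, 13 and 18 and 38 and 55. Afp, the fetal albumin relative, was the other that rose (1.73, adjusted p 0.0490), with 14, 12 and 14 UMIs in chow and 28 and 21 in MASH. Epcam, Cd24a and Afp did not reach the filter on low counts in enough chow libraries and were tested through the MASH libraries. The count of 5 and the median include them, so neither is a test of this list against all genes. Sox9, a factor of bile ducts, was at 28.6, 18.0 and 78.7 CPM in chow and 29.8 and 28.6 CPM in MASH and did not pass. On unscaled CPM, sums of 6 bile duct markers in the same nuclei were 17.0 to 60.8 in chow and 33.5 and 40.7 in MASH. Most of that sum was Sox9 (unscaled 16.8 to 60.2 and 31.7 and 34.5), and Pkhd1 was 0 by the gate. Epcam was at 0.118 to 0.275 in chow and 1.03 and 4.22 in MASH, and Cftr at 0 to 0.050 and 0.321 and 1.19. Krt7 was at 0.050 to 0.197 and 0.193 and 0.593, and Krt19 at 0 to 0.276 and 0.193 and 0.148. Unscaled sums of 6 macrophage markers were 14.1 to 15.2 in chow and 31.3 and 68.8 in MASH. The part of RNA from such cells in these levels was not tested.

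The genes whose levels ran most like each member were taken over 15 sums (3 zone parts of 5 libraries) among 6735 genes at 20 CPM or more. These points share libraries, so Pearson's r is a description. Hnf4a ran most like Serpina1a, Pcf11 and Slc39a14 (r 0.992, 0.992 and 0.988), Onecut1 like Ces3b, AI182371 and Hsd3b5 (0.975, 0.972 and 0.964), Foxa3 like Ulk1, Ahsg and Mt2 (0.990, 0.985 and 0.983), and Cebpb like Psmd7, Gm45792 and Psma3 (0.987, 0.986 and 0.986). Nr5a2 ran most like Cldn14, Shb and Zfc3h1 (0.992, 0.991 and 0.990) and Prox1 like Trim2, P2rx4 and Lacc1 (0.980, 0.978 and 0.957). Cebpa, Foxa1 and Foxa2 had their closest genes at 0.956 (Dazap1), 0.975 (Adipor2) and 0.964 (Ahctf1).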
